A study of Mus musculus with 10 samples.

Results

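Genes of fatty acid oxidation and ketogenesis were compared between livers of MI-883-treated and vehicle-treated mice. The group held 34 genes, chosen by name for their roles in mitochondrial and peroxisomal oxidation, ketone synthesis and the response to the nuclear receptor Ppara. All 34 were present among the 16647 genes of the count table, and all 34 passed the filter of at least 60 counts summed over the 10 livers. In this bulk RNA no member reached an adjusted P under 0.05 in edgeR, and 27 of 34 differed from control by less than 0.2 on the log2 scale. The members with the lowest P were *Etfa* and *Etfdh*, the electron carriers that serve the acyl-CoA dehydrogenases, both lower after MI-883.

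Both groups were male humanized PXR-CAR-CYP3A4/3A7 mice, in which human PXR, CAR and CYP3A genes stand in for their mouse counterparts, so that the members described here are mouse genes acting beside human xenobiotic receptors. The mice entered the high-fat diet (HFD) at 10 to 15 weeks of age and received it for 8 weeks. They then received MI-883 or vehicle for 4 weeks and stayed on the HFD during this time. MI-883, a human CAR agonist and PXR antagonist, was given at 5 mg/kg by oral gavage 3 times per week, and control mice received the vehicle of DMSO, PEG300 and corn oil on the same schedule. Each group had 5 livers, 1 library per liver. A group fed a standard diet was not analysed here, so the values refer to livers under HFD only.

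In the liver, long-chain fatty acids are first bound to coenzyme A, carried into mitochondria as carnitine esters, and shortened by repeated rounds of dehydrogenation, hydration, a further dehydrogenation and thiolysis. The electrons of the first step pass through the electron transfer flavoprotein to ubiquinone, and the acetyl-CoA produced feeds the citric acid cycle or the synthesis of ketone bodies. Peroxisomes shorten very long and branched chains by a parallel route. Many of these genes are targets of Ppara, which is activated by fatty acids during fasting and fat feeding.

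Total counts per library were 24014461 to 36221514 (median 31734138) in control livers and 23513665 to 28349963 (median 24581671) in MI-883-treated livers. *Cyp2b10*, the classical CAR target, averaged 36.5 ± 9.10 CPM without and 1019 ± 299 CPM with MI-883 (mean ± SD, n = 5), with no overlap between the groups, so the libraries followed their labels. CPM express counts relative to the library size scaled by TMM. The hepatocyte markers were present in every liver, summing to 83605 to 96785 CPM in control and 71213 to 84415 CPM in treated livers. Of these 10 markers, 9 were lower after MI-883 (median log2 fold change −0.23), whereas 9 of 10 stellate cell markers (0.34), 9 of 10 endothelial markers (0.27) and all 7 bile duct markers tested (0.53) were higher. In edgeR none of these markers had an adjusted P under 0.05. An unadjusted P under 0.05 was seen for 3, 4, 4 and 1 of them, in that order, against 15.6% of all tested genes. DESeq2 called *Apoa1* lower and *Cdh5* higher. Kupffer cell markers had a median of 0.08 (10 of 12 higher) and lymphocyte and neutrophil markers one of −0.12 (6 of 11 lower), with 0 calls in either tool. Of the adipocyte markers 5 were tested, and the adipsin gene *Cfd* was called lower (log2 fold change −2.25). In bulk liver, fewer hepatocytes and less RNA of a gene per hepatocyte cannot be told apart, and this holds for every member below.

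The stretch of 250 bases upstream of the start is shown for *Etfa* and *Etfdh*, the members with the lowest P, for *Hadhb*, whose start faces that of *Hadha* across 272 bases, and for *Pdk4*, a related gene with a difference past the threshold. Sequences are from RefSeq (GRCm38.p6), on the strand of the gene, and end at the base before the start. The windows lie at chr9:55512244-55512493 (minus strand), chr3:79628768-79629017 (minus), chr5:30155003-30155252 (plus) and chr6:5496279-5496528 (minus). Capitals mark a match to the direct repeat DR1, the kind of element that Ppara binds with its partner RXR.
Etfa: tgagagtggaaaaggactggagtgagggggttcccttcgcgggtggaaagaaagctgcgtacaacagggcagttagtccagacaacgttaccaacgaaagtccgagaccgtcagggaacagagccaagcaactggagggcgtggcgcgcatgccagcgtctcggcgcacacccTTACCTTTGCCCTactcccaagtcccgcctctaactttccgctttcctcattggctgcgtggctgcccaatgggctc
Etfdh: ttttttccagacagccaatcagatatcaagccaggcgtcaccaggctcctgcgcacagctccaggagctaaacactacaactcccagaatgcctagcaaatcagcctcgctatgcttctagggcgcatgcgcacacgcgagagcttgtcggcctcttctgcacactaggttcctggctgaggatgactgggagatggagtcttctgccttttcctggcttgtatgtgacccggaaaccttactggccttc
Hadhb: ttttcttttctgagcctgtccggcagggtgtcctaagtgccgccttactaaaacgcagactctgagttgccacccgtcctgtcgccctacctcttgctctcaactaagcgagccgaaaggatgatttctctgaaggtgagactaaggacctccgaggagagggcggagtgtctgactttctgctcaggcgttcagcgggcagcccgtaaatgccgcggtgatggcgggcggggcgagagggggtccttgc
Pdk4: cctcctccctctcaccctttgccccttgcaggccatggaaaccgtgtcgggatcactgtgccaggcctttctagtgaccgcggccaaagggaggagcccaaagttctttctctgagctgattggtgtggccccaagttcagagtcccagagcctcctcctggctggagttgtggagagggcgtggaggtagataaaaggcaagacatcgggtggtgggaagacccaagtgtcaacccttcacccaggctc

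The motif searched was AGGTCANAGGTCA on both strands with at most 2 mismatches. It was found in 3 of the 29 members with a window (10.3%), namely *Etfa*, *Acot4* and *Creb3l3*, and in 358 of the 10612 tested genes with a window (3.37%). In *Etfa* the match lay 77 to 65 bases before the start. A DR4 repeat of the kind CAR and PXR bind, AGTTCANNNNAGTTCA with at most 2 mismatches, was found in 0 of 29 members and 1.42% of tested genes. The element TNAAGGTCA, of the kind oestrogen-related receptors bind, had no exact match in the 29 windows and was found in 0.914% of tested genes. *Crat*, *Acaa2*, *Decr1*, *Vnn1* and *Angptl4* had no window. These matches describe letters in a short window and say nothing of binding.

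Across the 34 members, 23 were lower and 11 higher after MI-883, with a median log2 fold change of −0.06 against 0.005 over all 13219 genes tested. Thus 67.6% of members were lower, compared with 49% of all tested genes. With library sizes left as total counts, 19 of 34 were lower and the median was −0.015, while the median of all genes was 0.049. edgeR called 0 members at an adjusted P under 0.05, where 1.03% of all tested genes passed. At an unadjusted P under 0.05 there were 3 members in edgeR (*Etfa*, *Etfdh* and *Acot2*), against 15.6% of all genes, and 5 in DESeq2, against 15.8%. DESeq2 called 2 members, *Etfa* and *Etfdh*, both lower, where it called 1.30% of all genes lower and 3.50% in either direction.

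The data bounded most differences closely. The 95% confidence interval of the log2 fold change lay within 0.5 of 0 in 27 of 34 members and within 1 of 0 in 32. Its median half-width was 0.190. In 26 members the coefficient of variation was under 15% in both groups. The widest intervals were those of *Pex11a* and *Acot3*.

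**Figure D1:**
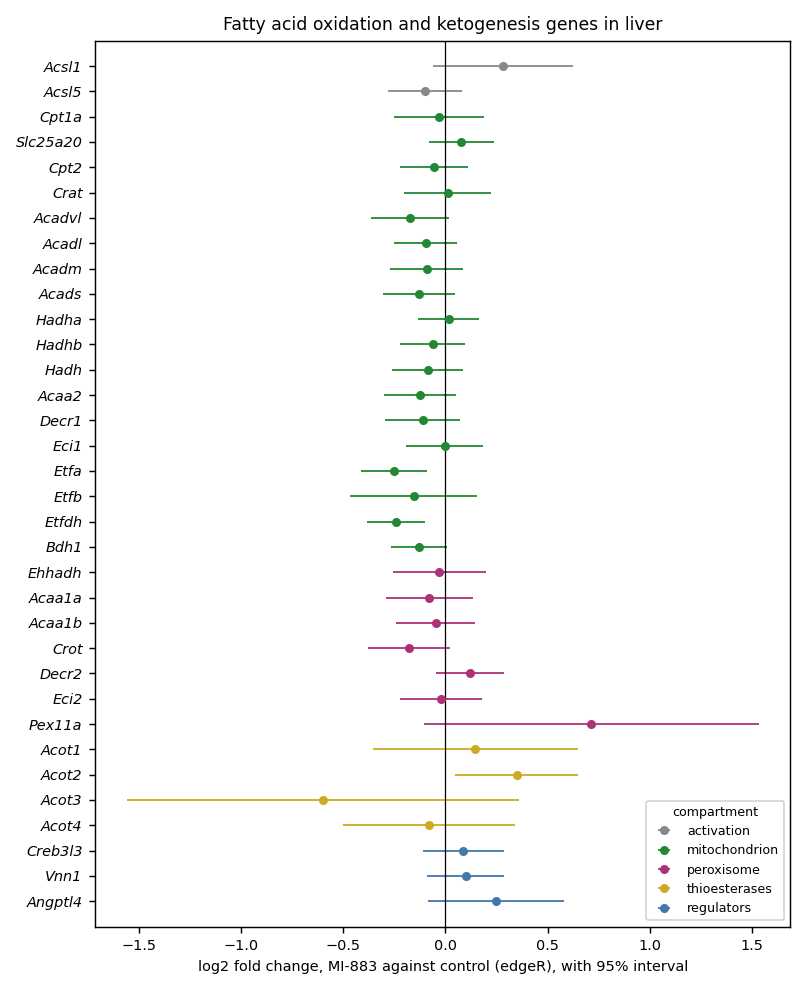
Log2 fold change of each of the 34 genes, MI-883 against control livers (edgeR, n = 5 per group), with the 95% confidence interval as a line and the compartment as colour. The intervals of *Etfa*, *Etfdh* and *Acot2* leave out 0, and those of the other 31 genes hold it; none of the 34 had an adjusted P under 0.05.

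Per kilobase of exonic sequence, the members spanned a wide range of levels. The highest was the peroxisomal thiolase *Acaa1b*, with a mean of 1629 CPM per kilobase in control and 1576 in MI-883-treated livers. The mitochondrial thiolase *Acaa2* followed at 893 and 820, and the flavoprotein subunit *Etfb* at 515 and 462. The 4 thioesterase genes lay between 7.91 and 26.1 CPM per kilobase in control livers, and *Pex11a* was lowest at 0.434. The members together took 1.30% to 1.53% of the TMM-scaled counts of a liver.

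**Figure D2:**
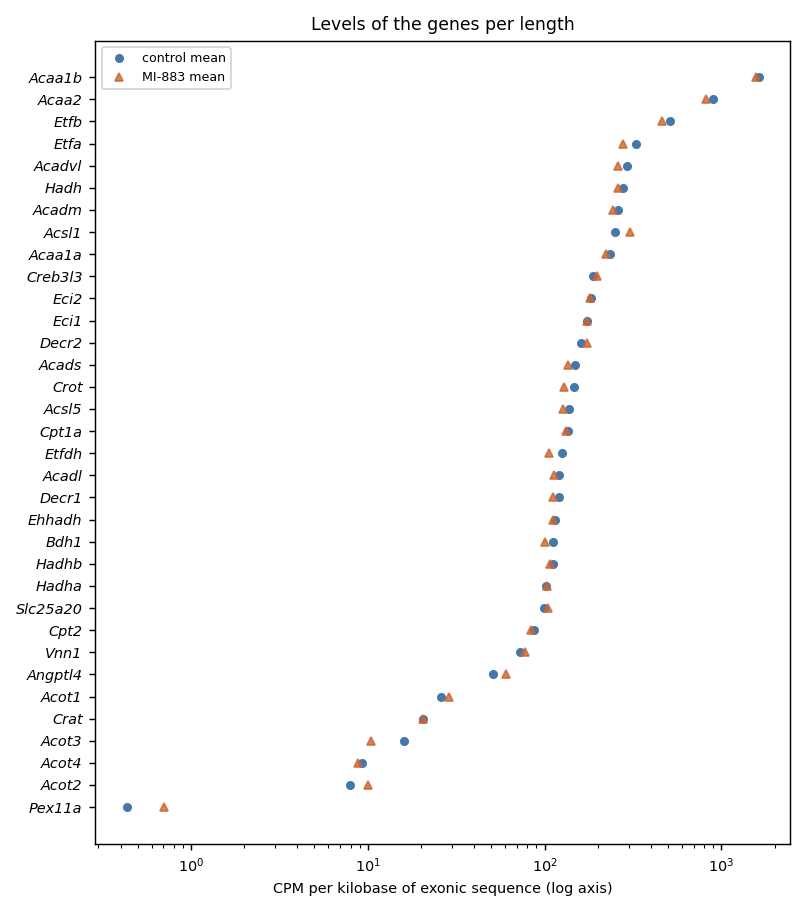
Mean level of each of the 34 genes in CPM per kilobase of exonic sequence, on a log axis, for control livers (circles) and MI-883-treated livers (triangles), n = 5 each. The pairs of symbols lie close together from *Acaa1b* (1629 and 1576) down to *Pex11a* (0.434 and 0.704).

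Activation of fatty acids is represented by the long-chain acyl-CoA synthetases *Acsl1* and *Acsl5*. *Acsl1* (chr8:46471037-46536051) had 768, 1099, 1036, 1026 and 1293 CPM in control livers 1 to 5 and 959, 1325, 1024, 1460 and 1575 CPM in MI-883-treated livers 1 to 5. The treated livers 2, 4 and 5 lay above every control liver, whereas livers 1 and 3 lay within the control range. This gave a log2 fold change of 0.28 ± 0.16 (SE), with an adjusted P of 0.413 (edgeR) and an exact permutation P of 0.206 (two-sided). *Acsl5* had means of 580 and 542 CPM in control and MI-883-treated livers (log2 fold change −0.10).

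The carnitine shuttle carries acyl groups into the mitochondrion. *Cpt1a* (chr19:3322326-3385735), the outer-membrane transferase that sets the pace of entry, had 504, 580, 602, 560 and 682 CPM in control livers and 474, 554, 593, 577 and 664 CPM in MI-883-treated livers. Both groups covered nearly the same range. Its log2 fold change was −0.03, with a 95% confidence interval from −0.25 to 0.19, an adjusted P of 0.908 (edgeR) and an exact permutation P of 0.706; the sign turned with total counts (0.017). *Slc25a20* (chr9:108662136-108684642), the carnitine-acylcarnitine translocase of the inner membrane, had 164, 193, 158, 187 and 183 CPM in control livers and 181, 198, 175, 187 and 193 CPM in MI-883-treated livers. The groups overlapped, and the log2 fold change was 0.08 ± 0.07 (SE, adjusted P = 0.63, edgeR; exact permutation P = 0.254). It was 0.041 without control liver 3 and 0.121 with total counts. The inner-membrane transferase *Cpt2* had a log2 fold change of −0.06 and the carnitine acetyltransferase *Crat* one of 0.01.

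Among the enzymes of the mitochondrial spiral, 7 of 8 were lower and none was called, with a median log2 fold change of −0.09. *Acadvl* (chr11:70010183-70015428), the dehydrogenase for very long chains, had the lowest fold change of the 8. Its level was 617, 653, 623, 623 and 654 CPM in control livers and 548, 591, 479, 661 and 530 CPM in MI-883-treated livers. The control livers lay close together, and 4 of the 5 treated livers lay below all of them, while treated liver 4 lay above all of them. For this gene the log2 fold change was −0.17 ± 0.09 (SE), with an adjusted P of 0.354 (edgeR) and an exact permutation P of 0.0714.

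The dehydrogenases for long, medium and short chains, *Acadl*, *Acadm* and *Acads*, had log2 fold changes of −0.10, −0.09 and −0.13. Those of *Hadha* and *Hadhb*, the subunits of the trifunctional protein, were 0.01 and −0.06. For *Hadhb*, 14.8% of the 100-base stretches of its transcripts also occurred in *Gm13910*, so some of its reads cannot be placed by sequence alone. The hydroxyacyl-CoA dehydrogenase *Hadh* had −0.09 and the thiolase *Acaa2* −0.12. *Acaa2* ranged from 1233 to 1457 CPM in control livers and from 1142 to 1364 CPM after MI-883, with 3 treated livers below all controls. *Hadha* ranged from 383 to 436 and from 389 to 439 CPM, an almost complete overlap. *Acads* ranged from 262 to 297 and from 218 to 284 CPM, with treated livers 3 and 5 below all controls. Adjusted P values of these 7 genes were between 0.464 and 0.939 (edgeR).

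Auxiliary enzymes prepare unsaturated chains for the spiral. *Decr1* (chr4:15917240-15945377), the mitochondrial 2,4-dienoyl-CoA reductase, had 331, 355, 326, 401 and 365 CPM in control livers and 329, 342, 287, 367 and 319 CPM in MI-883-treated livers. The ranges overlapped, and only treated livers 3 and 5 lay below all controls. Its log2 fold change was −0.11 ± 0.08 (SE, adjusted P = 0.552, edgeR; exact permutation P = 0.214). It was −0.065 without control liver 4, −0.067 without MI-883-treated liver 3 and −0.071 with total counts. The isomerase *Eci1* had means of 226 and 225 CPM and the smallest difference among the members (log2 fold change −0.004).

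Among the subgroups of members, the 3 electron transfer genes had the lowest median log2 fold change (−0.24). Drops close to this size were also seen outside the group, where the 57 oxidative phosphorylation subunits tested had a median of −0.20. Of 20 other genes of mitochondrial oxidation tested, 14 were lower and 6 higher, with *Acad8* at −0.285, *Acat1* at −0.235 and *Mcee* at −0.348. *Etfa* (chr9:55454436-55512243) encodes the alpha subunit of the electron transfer flavoprotein, which takes electrons from the acyl-CoA dehydrogenases. Its level was 437, 476, 449, 495 and 440 CPM in control livers and 388, 421, 348, 404 and 368 CPM in MI-883-treated livers. None of the treated livers reached the level of the lowest control liver, 437 CPM. MI-883 livers were thus lower by a log2 fold change of −0.25 ± 0.07 (SE), with an adjusted P of 0.142 in edgeR and 0.0162 in DESeq2. The exact permutation test gave P = 0.00794, the smallest value that 5 livers against 5 allow. Every gene whose groups do not overlap receives this P, so it only repeats the lack of overlap. It is not adjusted for the number of members.

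*Etfdh* (chr3:79603788-79628767), the oxidoreductase that passes these electrons on to ubiquinone, followed the same pattern. It had 277, 319, 298, 307 and 314 CPM in control livers and 243, 260, 247, 262 and 270 CPM in MI-883-treated livers. The groups again did not overlap, the highest treated liver being at 270 and the lowest control liver at 277 CPM. This difference, a log2 fold change of −0.24 ± 0.07 (SE), had an adjusted P of 0.113 in edgeR and 0.00424 in DESeq2. Its exact permutation P of 0.00794 again follows from the lack of overlap. Neither *Etfa* nor *Etfdh* shared a 100-base stretch with another gene.

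The beta subunit *Etfb* had 412, 474, 492, 457 and 465 CPM in control livers and 403, 445, 294, 571 and 352 CPM in MI-883-treated livers. Treated livers were spread more widely than the controls and included the highest liver of all 10 and the lowest. On the log2 scale the fold change was −0.16, with a 95% confidence interval from −0.47 to 0.16. For *Etfb*, 35.8% of transcript stretches were shared with *Gm45233*.

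*Bdh1* (chr16:31422297-31458901) encodes the dehydrogenase that reduces acetoacetate to 3-hydroxybutyrate, and was the only member of ketone synthesis. It had 423, 397, 411, 393 and 393 CPM in control livers and 382, 350, 371, 379 and 364 CPM in MI-883-treated livers. On the TMM scale all treated livers lay below all control livers, by a small margin; with total counts the groups overlapped and the log2 fold change was −0.085. On the TMM scale the log2 fold change was −0.13 ± 0.06 (SE), with an adjusted P of 0.344 in edgeR and 0.107 in DESeq2. The exact permutation P of 0.00794 follows from the lack of overlap on that scale. *Etfa*, *Etfdh* and *Bdh1* were thus the 3 of 34 members whose groups did not overlap on the TMM scale, all lower. With total counts the 3 were *Etfa* and *Etfdh*, lower, and *Decr2*, higher. On the TMM scale 1.93% of all tested genes lay lower without overlap and 3.98% did so in either direction.

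Over the 18 mitochondrial members, from the carnitine shuttle to *Bdh1*, 15 were lower and 3 higher, with a median log2 fold change of −0.09 and a range of −0.25 to 0.08. With total counts 13 of 18 were lower, with a median of −0.054. Their summed level was 6993 to 7692 CPM in control livers and 6320 to 7462 CPM in MI-883-treated livers. MI-883-treated liver 3 was the lowest of its group in 11 of the 18, among them *Acadvl*, *Acads*, *Hadh*, *Decr1*, *Eci1*, *Etfa* and *Etfb*. It had the highest TMM factor of the 10 libraries (1.0993) and held the lowest treated value of 43 of 57 oxidative phosphorylation subunits. Without it 15 of 18 were still lower and the median was −0.056. The lower levels ran beside lower hepatocyte markers, and the part of those markers in the result was not tested.

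**Figure D3:**
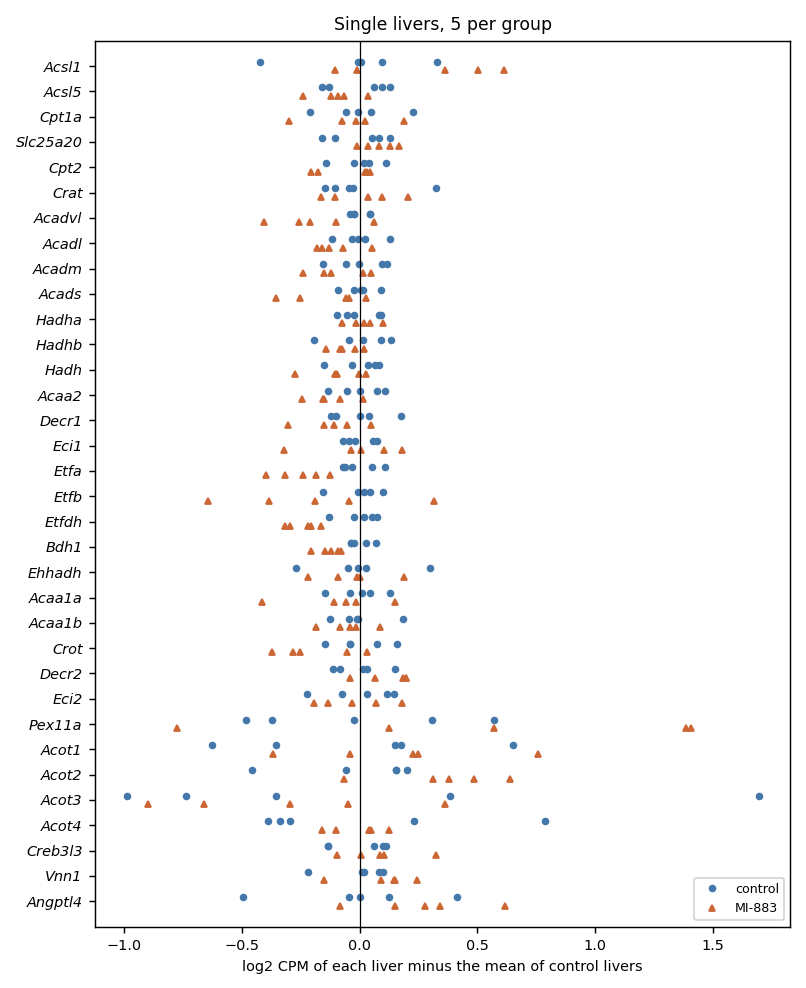
Log2 CPM of each liver minus the mean of the 5 control livers, for the 34 genes, with control livers as circles and MI-883-treated livers as triangles. On this TMM scale the triangles lie wholly to the left of the circles for *Etfa*, *Etfdh* and *Bdh1* (with total counts, *Bdh1* overlaps) and mingle with them in the other 31 genes, and 1 control liver of *Acot3* lies far to the right.

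Of the 7 peroxisomal members, 5 were lower and 2 higher, with a median log2 fold change of −0.03, and neither edgeR nor DESeq2 called any of them. With total counts 3 of 7 were lower and the median was 0.016, so no direction is given. *Ehhadh*, the bifunctional enzyme and a textbook Ppara target, had means of 341 and 334 CPM (log2 fold change −0.03). The thiolases *Acaa1a* and *Acaa1b* had −0.08 and −0.05, but 19.3% of the stretches of *Acaa1b* and 7.21% of those of *Acaa1a* were shared between them. *Crot*, which makes medium-chain acylcarnitines for export, had −0.18 (adjusted P = 0.366, edgeR), the reductase *Decr2* 0.12 (adjusted P = 0.48, edgeR) and the isomerase *Eci2* −0.02. For *Crot*, control livers spanned 394 to 487 CPM and treated livers 338 to 447 CPM, treated livers 1, 2 and 4 lying below all controls. For *Decr2*, control livers spanned 340 to 409 CPM and treated livers 358 to 422 CPM, treated livers 2, 4 and 5 lying above all controls.

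*Pex11a* (chr7:79735957-79743131), which takes part in the division of peroxisomes, had the lowest level of the members. It had 0.67, 1.16, 1.39, 0.724 and 0.921 CPM in control livers and 0.547, 1.02, 2.48, 1.39 and 2.45 CPM in MI-883-treated livers. Treated livers 3 and 5 were high, while the lowest liver of all 10 was treated liver 1. The log2 fold change of 0.71 ± 0.38 (SE, adjusted P = 0.385, edgeR; exact permutation P = 0.27) rested on as few as 16 counts in a liver, where every other member had at least 306. The total peroxisomal level was 4424 to 5150 CPM in control livers and 4125 to 4840 CPM in MI-883-treated livers.

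The acyl-CoA thioesterases release free fatty acids from coenzyme A, and *Acot1*, *Acot3* and *Acot4* varied widely among control mice (coefficients of variation of 34.1%, 88.4% and 39.1%). *Acot1* acts in the cytosol, *Acot2* in mitochondria, and *Acot3* and *Acot4* in peroxisomes, and the 4 genes lie together within 72540 bases on chromosome 12. *Acot3* (chr12:84052144-84060400) had 25.6, 33.3, 21.5, 55.7 and 138 CPM in control livers and 54.8, 41.2, 22.9, 34.8 and 27 CPM in MI-883-treated livers. Control liver 5 was far above all others, and the remaining livers of both groups overlapped. This amounted to a log2 fold change of −0.60 ± 0.44 (SE, adjusted P = 0.543, edgeR; exact permutation P = 0.659), and without control liver 5 it was 0.083. It was −0.207 with a surrogate variable.

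The same control liver was highest of its group for *Acot1* (88.8 CPM, against 36.7 to 63.9 in the other controls) and *Acot4* (94.8 CPM, against 41.9 to 64.5). The summed thioesterase level in that liver was 342 CPM, against 120 to 203 CPM in the other controls and 145 to 215 CPM in the MI-883-treated livers. *Acot1* and *Acot4* had log2 fold changes of 0.15 and −0.08.

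*Acot2* (chr12:83987861-83993877) had 19.1, 16.5, 12.5, 19.1 and 19.7 CPM in control livers and 24, 22.3, 26.7, 16.4 and 21.3 CPM in MI-883-treated livers. Here 4 of 5 treated livers lay above all controls, and treated liver 4 lay among the lowest. The log2 fold change was 0.35 ± 0.14 (SE), with an adjusted P of 0.255 (edgeR) and an exact permutation P of 0.0873. Of the stretches of *Acot2*, 17.1% also occur in *Acot1*, and 13.8% of those of *Acot3* occur in other genes. How reads were split between these neighbours was not tested.

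The remaining members respond to Ppara without catalysing oxidation, and all 3 were higher, none past the threshold. *Angptl4* (chr17:33774900-33781575), a secreted inhibitor of lipoprotein lipase, had 117, 220, 160, 165 and 180 CPM in control livers and 209, 253, 200, 183 and 156 CPM in MI-883-treated livers. The ranges overlapped, with 4 of 5 treated livers above the control median. The log2 fold change was 0.25 ± 0.16 (SE, adjusted P = 0.461, edgeR; exact permutation P = 0.222). It was 0.140 without control liver 1 and 0.150 without MI-883-treated liver 2. *Creb3l3*, a membrane-bound transcription factor of the liver, had 428 and 455 CPM (0.09), and the pantetheinase *Vnn1* had 176 and 188 CPM (0.10).

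**Figure D4:**
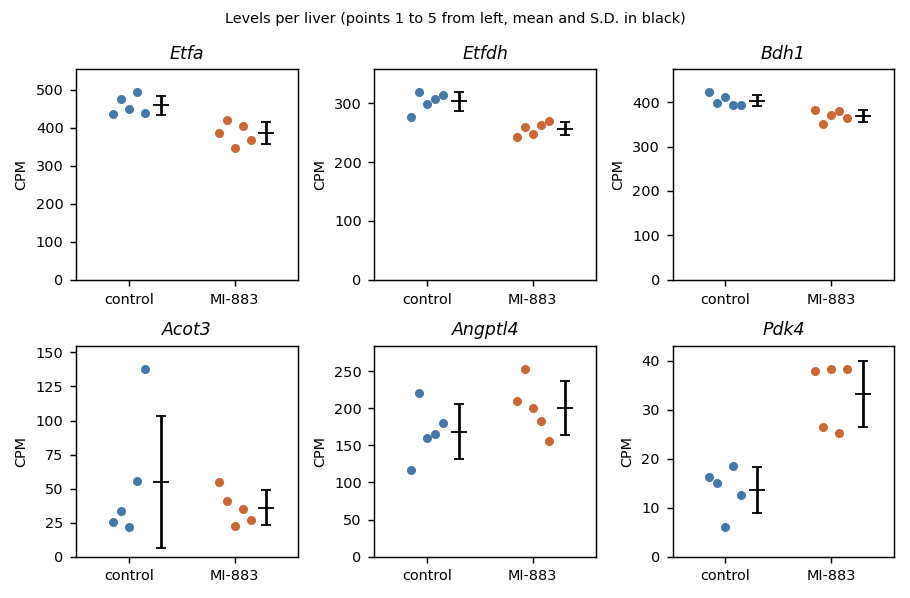
CPM in single livers for 5 members and the related gene *Pdk4*, with control livers in blue, MI-883-treated livers in orange, and mean and SD (n = 5) in black. On the TMM scale the groups are apart for *Etfa*, *Etfdh*, *Bdh1* and *Pdk4* and overlap for *Acot3* and *Angptl4*; control liver 5 reaches 138 CPM for *Acot3*.

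Related genes outside the group were read from 5 lists of 124 genes, of which 113 passed the filter. Of these 113, 52 were higher and 61 lower, with a median log2 fold change of −0.03. Calls in edgeR were 3 higher and 0 lower, where 1.03% of all tested genes were called. DESeq2 called 3 higher and 5 lower, where it called 3.50% of all tested genes in either direction and 1.30% lower. The lower ones were *Acad8* (log2 fold change −0.285), *Acat1* (−0.235), *Mcee* (−0.348), *Scp2* (−0.182) and *Fabp1* (−0.288), all without overlap between the groups. Of all tested genes, 1.93% lay lower without overlap. All 3 genes called in edgeR stood in the list headed Ppara and its other targets, of which 32 were tested, 14 higher and 18 lower. The list was drawn up by name, and whether Ppara acted on these genes was not tested.

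*Pdk4* encodes the kinase that inactivates the pyruvate dehydrogenase complex and so spares glucose when fat is burnt. It had 16.2, 15, 6.13, 18.5 and 12.7 CPM in control livers and 38, 26.6, 38.3, 25.3 and 38.4 CPM in MI-883-treated livers, without overlap. It rose by a log2 fold change of 1.27 ± 0.23 (SE, adjusted P = 0.0198, edgeR). The call did not hold without control liver 5 (adjusted P = 0.0623, edgeR) or without MI-883-treated liver 5 (0.0624).

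The fatty acid omega-hydroxylases *Cyp4a12a* and *Cyp4a12b* also rose. Shared stretches were counted for the members only, so how reads were split between these genes was not tested. *Cyp4a12a* had 220, 273, 285, 342 and 155 CPM without and 416, 538, 391, 410 and 552 CPM with MI-883 (log2 fold change 0.85 ± 0.18, adjusted P = 0.0428, edgeR). Its adjusted P exceeded 0.05 without any 1 liver except control liver 4, with a highest value of 0.118. *Cyp4a12b* had 116, 131, 131, 118 and 82.6 CPM in control livers and 208, 165, 182, 197 and 254 CPM in MI-883-treated livers (0.80 ± 0.14, adjusted P = 0.0141, edgeR). Among the best known Ppara-driven hydroxylases, *Cyp4a10* had a log2 fold change of −0.60 (adjusted P = 0.267, edgeR) and *Cyp4a14* one of −1.20 (adjusted P = 0.208, edgeR). These 2 were chosen for mention after their values were seen.

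*Ppara* itself had a log2 fold change of −0.08 and the fasting hormone *Fgf21* one of −0.32, and neither was called. By list, the median log2 fold change was −0.09 for 20 other genes of mitochondrial oxidation and −0.07 for 15 of activation and uptake. It was 0.03 for 38 of peroxisomal oxidation, 0.007 for 8 ketone body genes and −0.03 for 32 genes of Ppara and its targets. *Acat1* was counted with mitochondrial oxidation and not with the ketone body genes.

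Subunits of oxidative phosphorylation, the respiratory chain and ATP synthase of the same organelle, had a lower median than the mitochondrial members. Of 57 tested, 56 were lower (98.2%), with a median log2 fold change of −0.20, against −0.09 for the 18 mitochondrial members. Among those members, the 3 electron transfer genes had a median of −0.24. With total counts 54 of 57 were lower. The summed level of the 60 listed subunits was 14182 to 16473 CPM in control livers. In MI-883-treated livers 1 to 5 it was 13930, 14311, 11254, 14565 and 11859 CPM. Treated livers 3 and 5 held the lowest treated value of 43 and 12 of the 57 tested subunits. Without MI-883-treated liver 3 the median was −0.146. Neither edgeR nor DESeq2 called any of the 57 subunits. In edgeR 23 of them had an unadjusted P under 0.05, against 15.6% of all tested genes. No test of the difference between the lists was made.

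**Figure D5:**
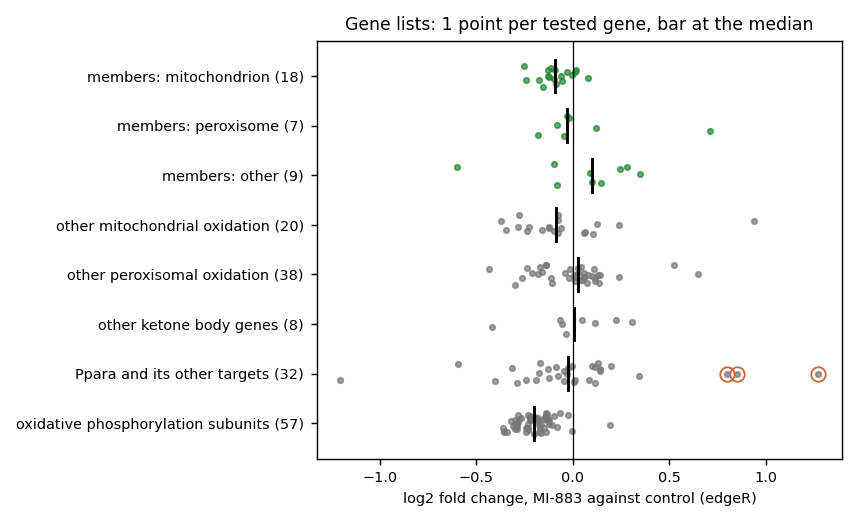
Log2 fold change of every tested gene in the lists (number of genes in brackets), with a bar at the list median; vertical scatter has no meaning, and rings mark genes with an adjusted P under 0.05 (edgeR). Members are in green. The bars lie at −0.09 for mitochondrial members and −0.20 for oxidative phosphorylation subunits, and the 3 rings are *Cyp4a12b*, *Cyp4a12a* and *Pdk4*.

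Signs of the time of day and of feeding were read from 2 further lists. Of 17 clock genes tested, 12 were lower (median −0.11), with 0 calls in edgeR or DESeq2. At an unadjusted P under 0.05 there were 2 (edgeR), against 15.6% of all tested genes. Of 10 fasting response genes 8 were lower (median −0.16), and *Pdk4*, higher, was the only call in edgeR. DESeq2 called 1 of the 10 higher and 1 lower. Mice were fasted for 3 hours before blood was collected, and the part of feeding in these values was not tested.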

How the data were processed

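Total RNA from liver was sequenced with reads of 150 bases from a strand-marking library kit. Per the labels and the methods, the authors trimmed reads with fastp 0.23.0, aligned them to mm10 with STAR and counted them per gene with featureCounts; the annotation and strand setting used for counting are not given in the sources used here. The deposited values are raw counts per Entrez gene, without normalization. Symbols and positions came from RefSeq (GRCm38.p6) and exonic lengths from GENCODE.

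Genes with at least 60 counts over the 10 livers (13219) were tested with edgeR 4.0.16 (quasi-likelihood, TMM, Benjamini-Hochberg over all tested genes, threshold 0.05) in R 4.3.3, with condition as the sole term and no block. DESeq2 1.42.0 (Wald test, no independent filtering) was the alternative test, and sva 3.50.0 gave 1 surrogate variable. The standard error is the fold change divided by the root of F. Exact two-sided permutation tests used log2(CPM + 0.01), and their P values were not adjusted. The fitting script was tested on simulated data. Other scalings, filters, covariates and leaving out each liver were tried. Replicate numbers were not taken as pairs.

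The gene group, lists and tests were chosen with earlier results of these data known. Values were given in full for members called by either tool, members without overlap, the member with the largest difference in each subgroup, and *Cpt1a*, *Bdh1* and *Angptl4*; the liver values of *Etfb* and *Acot2* were added after their values were seen; other list genes were named when called in edgeR, or where a result turned on them. The mice are separate animals, so P-values measure the spread between mice. Values of some related genes are not reported here.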

Additional observations from a re-analysis of the deposited data

Results flagged for a closer look

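In 2 of 74 groups of 5 livers compared, for the members and the called related genes, 1 liver lay apart from the other 4 by Dixon's criterion at 95%, where chance gives 3.7. *Crat* was at 116 CPM in control liver 5, and the nearest control liver was at 90.8 CPM. *Vnn1* was at 151 CPM in control liver 3, and the nearest control liver was at 177 CPM. No cause was tested for either.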

How the results depend on the processing

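No member was called by edgeR under any of the 8 alternative scalings, filters and covariates or without any 1 liver (range 0 to 0). DESeq2 called 2 members (*Etfa*, *Etfdh*), and also 2 when genes needed 60 counts in every liver, a setting chosen after seeing the data that left out *Pex11a*. In DESeq2 without each liver in turn, also chosen after seeing the data, the count ranged from 1 to 4. *Etfdh* was called in all 10 such fits and *Etfa* in 6, being lost without control replicate 2, control replicate 4, MI-883 replicate 3 or MI-883 replicate 5; without MI-883 replicate 4, *Acadvl* and *Acot2* were called as well. In edgeR the adjusted P of *Etfa* ranged from 0.128 to 0.296 and that of *Etfdh* from 0.075 to 0.242 when 1 liver was left out. The cause of the difference between the tools was not tested.

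The median of the members ranged from −0.091 to −0.027 without each liver and from −0.063 to −0.015 under the other settings. *Cpt1a*, at −0.03, turned to 0.017 with total counts and 0.029 with a surrogate variable, and ranged from −0.091 to 0.029 without each liver (0.028 without control replicate 5, 0.029 without MI-883 replicate 1). *Acot3* ranged from −0.802 to 0.083 and turned sign without control replicate 5.

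The count of other pathway genes called was 3, and it was 8 in DESeq2, 0 with a replicate block and 1 to 3 without each liver. It was 1, *Cyp4a12b*, without control replicate 5 or without MI-883 replicate 5. With the block the adjusted P was 0.0545 for *Pdk4*, 0.081 for *Cyp4a12a* and 0.062 for *Cyp4a12b* (edgeR). Livers with the same number in the labels did not deviate together in every pair. The correlation of their deviations from the group means was 0.36, −0.121, −0.102, 0.0761 and 0.079 for replicates 1 to 5. None matched best with its own number. These correlations were not tested, so they cannot show whether livers with the same number belong together. The block left 0 members called. With replicates 1 and 2 parted from 3 to 5, a split known from earlier results of these data, *Cyp4a12a* had an adjusted P of 0.0509.

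Depth limits *Pex11a* alone, at 16 counts in its lowest liver. For the other members the spread between 5 livers per group sets the precision.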
